A study of Mus musculus with 41 samples.

Results

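Mitochondrial beta-oxidation was followed through the genes of 8 enzymes and enzyme subunits, Cpt1a, Cpt2, Acadvl, Acadl, Acadm, Hadha, Hadhb and Acaa2, in epidermal stem cells of mice on a high fat or a control diet. Probe sets were chosen by gene symbol in the platform annotation, which names 11 probe sets for 7 of these genes, out of 45141 probe sets and 17097 genes in all. No probe set is named for Hadha here, so it has no value. Cpt1a, Cpt2, Acadvl and Acadm have 1 probe set each, Acadl and Hadhb have 2, and Acaa2 has 3. The probe set of a gene that had the highest average across the 41 arrays stands for it, and the others are given after the comparisons.

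Beta-oxidation shortens fatty acids inside mitochondria and hands their electrons to the respiratory chain and their carbon, as acetyl-CoA, to the citric acid cycle. Long-chain fatty acids first cross the mitochondrial membranes as carnitine esters. CPT1A, on the outer membrane, makes the ester and is the regulated step, inhibited by malonyl-CoA, and CPT2, on the inner membrane, turns it back into acyl-CoA. A round of the cycle then runs through an acyl-CoA dehydrogenase, of which ACADVL, ACADL and ACADM take very long, long and medium chains. The later steps on long chains are carried out by the mitochondrial trifunctional protein, whose alpha subunit is encoded by Hadha and whose beta subunit, with the thiolase site, is encoded by Hadhb. ACAA2 is the thiolase for shorter chains. In liver, heart and muscle many of these genes are classical targets of PPAR and ERR nuclear receptors. In epidermis, fatty acids are also built into the lipids of the skin barrier.

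The cells came from the epidermis of wild type female C57B6/J mice, aged 15 weeks, after 7 weeks of free access to the high fat diet or its matched control diet, begun at 8 weeks of age. All groups share that strain, sex and age and differ by diet and by zeitgeber time (ZT, hours from lights on). Collection was at ZT0 and every 4 h until ZT20. In that order the groups of the high fat diet hold 3, 4, 2, 4, 4 and 4 arrays and those of the control diet 4, 3, 2, 3, 4 and 4, which makes 41 arrays. The labels number the replicates without saying that each is a separate mouse, so that p-values speak only of the spread from array to array, which may be technical. The mice killed on a day all belonged to 1 time point, so collection day and time point cannot be told apart. Whether both diets of a time point were killed on the same day is not settled by the design text, so day and diet cannot be told apart within a time point either.

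Values are the authors' RMA log2 expression values, and a difference of 1 is a doubling. The 7 basal keratinocyte markers, such as Krt5, Krt14 and Col17a1, were all measured, in a table whose values run from 2.17 to 13.50. Their mean was 11.74 on the high fat and 11.53 on the control diet at ZT8, and 11.98 to 12.13 in the other groups. The mean of 8 suprabasal keratinocyte markers was 9.73 and 9.90 at ZT8, in the same order, and 9.22 to 9.48 in the other groups. The 2 control arrays of ZT8 stood apart on the second principal component, at -33.1 and -42.7, against -14.0 to 26.4 for the other 39 arrays. High fat replicate 2 of ZT8 was the lowest of these 39, and the lowest of all 41 arrays on the first component, at -31.0. Results that rest on ZT8 are therefore given with that time point named, and the part of cell make-up in them was not tested. In bulk RNA of this kind, fewer cells of a type and less RNA per cell cannot be told apart.

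Stretches directly upstream of 4 transcription starts are shown because Acadl and Hadhb followed the most similar course over the 12 groups, and because Acadm and Acadvl rose with them at ZT12 and hold a nuclear receptor half-site. They are the 250 bases before the start in RefSeq's annotation of GRCm38.p6, written 5′ to 3′ on the strand of the gene, at chr1:66863310-66863559 (minus strand) for Acadl, chr5:30155003-30155252 (plus strand) for Hadhb, chr3:153944644-153944893 (minus strand) for Acadm and chr11:70015429-70015678 (minus strand) for Acadvl. Capitals mark the half-site AGGTCA or its reverse complement.
Acadl: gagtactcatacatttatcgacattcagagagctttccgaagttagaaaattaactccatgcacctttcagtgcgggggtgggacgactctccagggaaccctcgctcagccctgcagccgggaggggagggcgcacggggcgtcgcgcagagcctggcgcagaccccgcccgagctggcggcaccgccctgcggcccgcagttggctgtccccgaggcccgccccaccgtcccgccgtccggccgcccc
Hadhb: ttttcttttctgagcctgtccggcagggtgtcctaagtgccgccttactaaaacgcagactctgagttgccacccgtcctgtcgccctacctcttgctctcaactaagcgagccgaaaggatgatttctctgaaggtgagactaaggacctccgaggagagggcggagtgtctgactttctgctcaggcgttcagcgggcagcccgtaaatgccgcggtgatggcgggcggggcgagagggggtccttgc
Acadm: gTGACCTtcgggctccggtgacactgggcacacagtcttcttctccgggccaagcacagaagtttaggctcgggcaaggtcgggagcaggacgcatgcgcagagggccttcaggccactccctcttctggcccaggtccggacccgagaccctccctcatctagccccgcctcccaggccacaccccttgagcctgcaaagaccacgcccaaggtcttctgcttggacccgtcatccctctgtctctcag
Acadvl: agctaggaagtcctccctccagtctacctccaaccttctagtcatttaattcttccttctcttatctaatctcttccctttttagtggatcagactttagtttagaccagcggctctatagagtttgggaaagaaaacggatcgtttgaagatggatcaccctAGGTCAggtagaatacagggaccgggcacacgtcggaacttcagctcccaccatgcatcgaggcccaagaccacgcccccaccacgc
The Hadhb stretch is also the upstream region of Hadha. The 2 genes lie head to head, with starts 273 bases apart, and their windows share 228 bases. Sequence motifs were searched on both strands in the windows of 7 of the 8 genes, all but Acaa2. The half-site AGGTCA was found in 3 of the 7, in Cpt1a at bases -94 to -89 from the start, in Acadvl at -87 to -82 and in Acadm at -249 to -244, and in 14.0% of all 32851 windows of that length. Cpt1a rose at ZT12 as well, but its window, which overlaps the annotated Cpt1a gene, is not shown. The PPAR and RXR direct repeat AGGTCANAGGTCA, which contains the half-site, the extended ERR half-site TNAAGGTCA, the E-box CACGTG of the circadian activators and the D-box TTATGNAA were in none of the 7, and in 0.0335%, 1.14%, 6.02% and 3.07% of all windows. These letters describe the windows only. GC content was 68.0% for Acadl, 64.0% for Acadm, 58.8% for Hadhb and 49.6% for Acadvl, against a median of 52.4% over all windows.

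The first comparison asks how the diet changed each gene at each time of day. At ZT12, 6 of the 7 measured genes rose on the high fat diet, by 1.24-fold (Acadvl) to 1.40-fold (Acadm), and the seventh, Cpt2, was 1.29-fold higher without passing. In the same test 13.6% of all genes rose and 4.44% fell at ZT12. The median difference of the 7 genes was 0.45 on the log2 scale, against 0.05 for all genes. All high fat arrays lay above all control arrays for the 6 genes that rose, a separation seen in 20.6% of all genes.

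Of the 2 import enzymes, Cpt1a rose and Cpt2 was more scattered. Cpt1a had 9.32, 9.59, 9.85 and 9.52 on the high fat arrays of ZT12, against 9.16, 8.95 and 9.14 on the control arrays. The lowest high fat array was above the highest control array, and the difference was 0.49 ± 0.13 (SE, log2, adjusted p = 0.00857 by limma, Benjamini-Hochberg over all genes). This call ended without control replicate 2 of ZT12 (difference 0.42, adjusted p = 0.0617). Cpt2 had 7.94, 8.12, 7.29 and 8.07 on the high fat arrays, against 7.59, 7.48 and 7.40 on the control arrays. On the high fat diet 3 arrays were above every control array and 1 was below them all, so that the groups overlapped and the difference of 0.36 ± 0.20 did not pass (adjusted p = 0.215).

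The 3 acyl-CoA dehydrogenases rose together at ZT12. Acadvl, for very long chains, had 9.47, 9.40, 9.18 and 9.26 on the high fat arrays, against 8.97, 9.01 and 9.07 on the control arrays. Its difference was 0.31 ± 0.07 (adjusted p = 0.00307), the smallest of the 6 that passed. Acadl, for long chains, had 8.60, 8.30, 8.53 and 8.35 on the high fat arrays, against 8.04, 8.11 and 8.06 on the control arrays. That difference was 0.37 ± 0.08 (1.30-fold, adjusted p = 0.00226). Acadm, for medium chains, had 9.09, 8.92, 9.09 and 9.38 on the high fat arrays, against 8.70, 8.57 and 8.62 on the control arrays. Here the difference was 0.49 ± 0.11 (adjusted p = 0.00323).

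The enzymes of the later steps rose by a similar amount. Hadhb, the beta subunit of the trifunctional protein, had 9.55, 9.46, 9.61 and 9.66 on the high fat arrays of ZT12, against 9.18, 9.19 and 8.98 on the control arrays. The difference was 0.45 ± 0.09 (1.37-fold, adjusted p = 0.00124). Acaa2, the thiolase, had 11.33, 11.19, 11.03 and 11.18 on the high fat arrays, against 10.63, 10.85 and 10.72 on the control arrays. Its difference was 0.45 ± 0.10 (1.36-fold, adjusted p = 0.00236), and the 4 high fat arrays were the highest of all 41. The 6 calls were also made from the arrays of ZT12 alone.

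Some cell type markers passed at this time point, where 13.6% of all genes rose and 4.44% fell. Outside the leukocyte list, the counts below are too small to tell from these shares. Of 7 leukocyte markers 4 rose, the antigen presentation genes Cd74, H2-Aa and H2-Ab1 and the Langerhans cell gene Cd207, by 0.45 ± 0.15, 0.52 ± 0.11, 0.94 ± 0.21 and 0.45 ± 0.13, and the mean of the list was 6.91 to 7.16 on the high fat arrays, against 6.66 to 6.78 on the control arrays. Ptprc, the general leukocyte antigen, averaged 4.34 over all arrays. Of 8 suprabasal keratinocyte markers 2 rose, with a list mean of 9.35 to 9.46 on high fat arrays, against 9.17 to 9.35 on control arrays, and of 6 melanocyte markers 2 fell, with 5.85 to 5.96 on high fat arrays, against 6.09 to 6.11 on control arrays. Of 4 measured adipocyte markers 1 fell (list mean 5.59 to 5.80 on high fat arrays and 5.74 to 5.79 on control arrays, with Adipoq at 4.58 over all arrays), and of 7 skeletal muscle markers 1 rose (6.36 to 6.55 on high fat arrays and 6.33 to 6.38 on control arrays). With limma 0 of 6 sebocyte, 0 of 6 fibroblast and 0 of 5 endothelial markers passed at ZT12 (0, 1 and 2 at an unadjusted p under 0.05), and 1 of 7 basal keratinocyte markers rose. Before adjustment, 5476 of all 17097 genes were under 0.05 at ZT12. The part of these cells in the rise of the beta-oxidation genes was not tested.

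**Figure D1:**
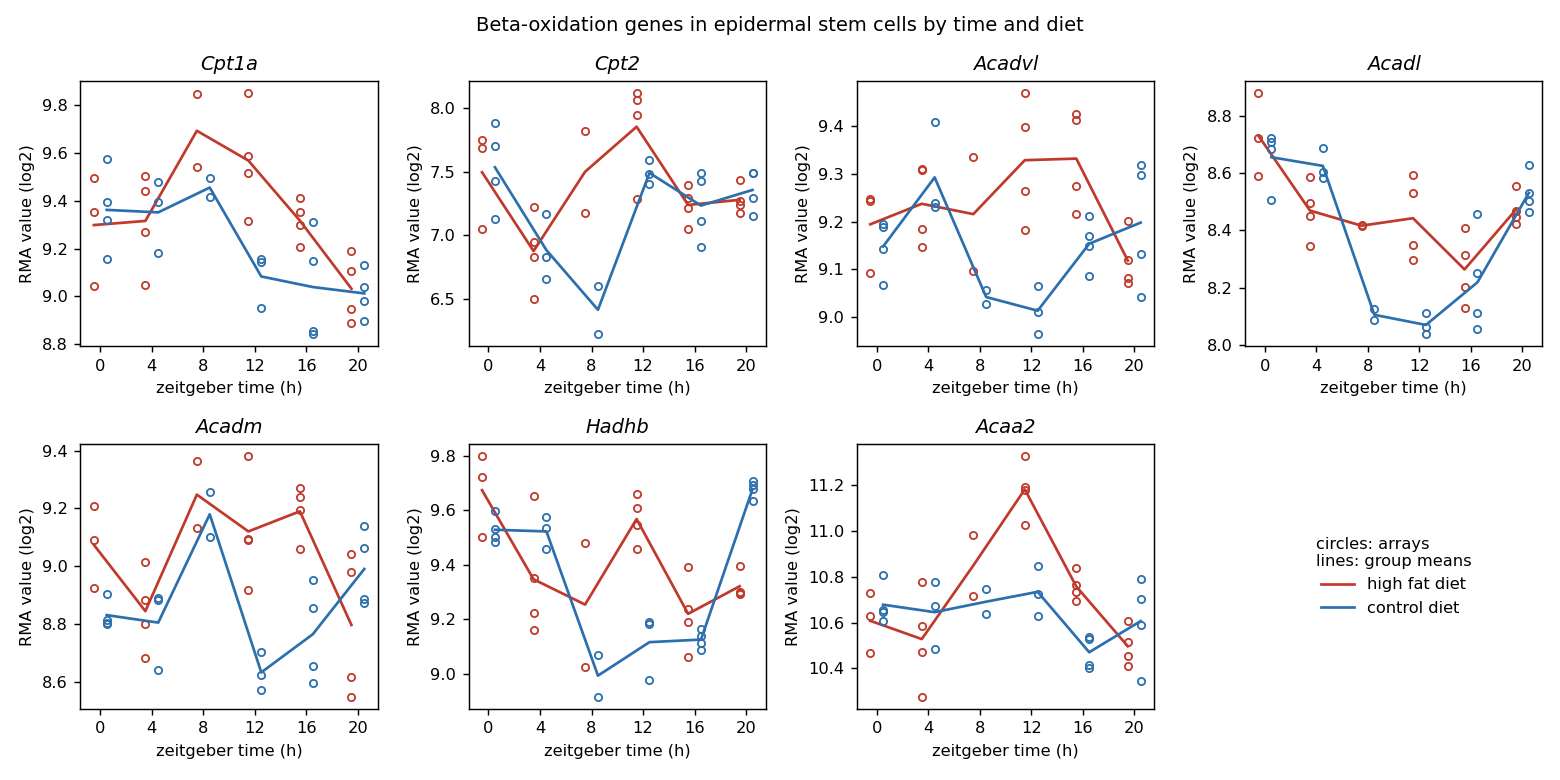
RMA value (log2, vertical axis, its own range in each panel) of the 7 measured genes by zeitgeber time (hours). Circles are single arrays and lines join group means, in red for the high fat diet and blue for the control diet; at ZT12 the red circles lie above the blue ones in every panel but that of Cpt2.

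The plot of array values shows the diets close together at ZT0, ZT4 and ZT20 for most genes and apart around ZT12. At ZT0 and ZT4, 0 of the 7 genes passed with limma (1 and 0 at an unadjusted p under 0.05), where 0.854% and 0.386% of all genes did. Before adjustment, 2198 and 2039 of all 17097 genes were under 0.05. The gene under 0.05 before adjustment was Acadm at ZT0, with 8.92, 9.21 and 9.09 on the high fat arrays, against 8.81, 8.90, 8.80 and 8.80 on the control arrays. Its groups did not overlap, as in 7.76% of all genes in that direction, and the difference was 0.24 ± 0.11 (adjusted p = 0.349).

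At ZT8 Cpt2 alone passed, and in the same test 5.42% of all genes rose. It had 7.18 and 7.82 on the high fat arrays, against 6.60 and 6.22 on the control arrays, which include the lowest of its 41 values. The difference of 1.09 ± 0.26 (2.12-fold, adjusted p = 0.00892) was the largest of any of the 7 genes at any time point. It rests on 2 arrays a diet and on the control group that stands apart, and ended without high fat replicate 2 (0.77, adjusted p = 0.143) and without control replicate 2 (0.90, adjusted p = 0.147). All 7 differences were above 0 at ZT8, with a median of 0.24 against 0.03 for all genes. Acadl, at 8.42 and 8.41 on the high fat arrays, against 8.12 and 8.09 on the control arrays, had a difference of 0.31 ± 0.11 and did not pass (adjusted p = 0.0664). High fat arrays were above control arrays for 4 of the 7 genes, Cpt1a, Cpt2, Acadvl and Acadl, as for 28.0% of all genes. The leukocyte list mean was 6.54 and 6.59 on the high fat arrays of ZT8, against 5.99 and 6.30 on the control arrays, and that of 6 measured sebocyte markers was 7.37 and 7.95 on the high fat arrays, against 8.24 and 8.23 on the control arrays, and their part in these differences was not tested.

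At ZT16 Acadm passed, where 0.579% of all genes rose. It had 9.24, 9.27, 9.06 and 9.19 on the high fat arrays, against 8.95, 8.85, 8.59 and 8.65 on the control arrays. The groups did not overlap, and the difference was 0.43 ± 0.10 (1.34-fold, adjusted p = 0.0358). Acaa2 and Acadvl also had every high fat array above every control array, as 3.99% of all genes did, but their differences of 0.29 ± 0.09 and 0.18 ± 0.07 did not pass (adjusted p = 0.0979 and 0.164). The call of Acadm ended when any 1 of 6 of the 8 arrays of ZT16 was left out (3 of each diet) and from the arrays of ZT16 alone (adjusted p = 0.100).

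At ZT20 the direction was the opposite for Hadhb, the 1 gene that passed, where 0.392% of all genes fell. It had 9.30, 9.40, 9.30 and 9.29 on the high fat arrays, against 9.63, 9.71, 9.69 and 9.68 on the control arrays. No arrays of the diets overlapped, as in 3.59% of all genes in that direction, and Hadhb fell by 0.36 ± 0.09 on the log2 scale (adjusted p = 0.0435). The call ended when any of the 8 arrays of ZT20 was left out. The leukocyte list mean was 6.86 to 7.07 on the high fat arrays of ZT20, against 7.14 to 7.25 on the control arrays, and the sebocyte list mean 6.98 to 7.31 on the high fat arrays, against 7.34 to 7.59 on the control arrays. With limma 0 markers of either list passed (2 leukocyte and 1 sebocyte markers at an unadjusted p under 0.05, and 2533 of all 17097 genes). The part of these markers' cells in the fall of Hadhb was not tested. Of the other 6 genes, 5 had differences below 0 and Cpt1a was at 0.02 ± 0.12, and none passed (adjusted p = 0.387 to 0.959).

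**Figure D2:**
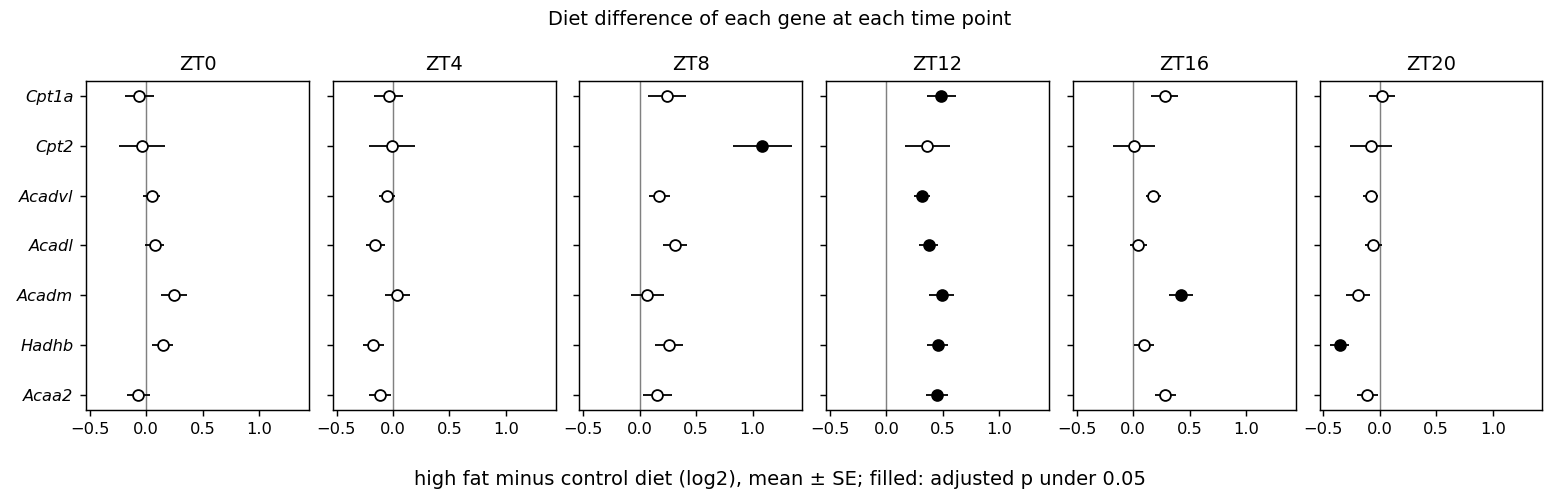
Difference between the diets (high fat minus control, log2, horizontal axis) for the 7 genes at each time point; points are estimates, bars are ± SE, and filled points passed an adjusted p of 0.05. Filled points are 6 of 7 at ZT12, 1 each at ZT8, ZT16 and ZT20, and none at ZT0 and ZT4.

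Averaged over the 6 time points, all 7 differences were above 0, from 0.07 (Hadhb) to 0.22 (Cpt2), and 2 genes rose, where 5.52% of all genes did. Acadm rose by 0.18 ± 0.05 (SE, adjusted p = 0.0202) and Acadvl by 0.10 ± 0.03 (adjusted p = 0.0471). The call of Acadvl ended in 24 of the 41 fits that each left out 1 array, on either diet and at every time point (adjusted p up to 0.143), and that of Acadm in none of them. In an additive fit with group as a random block neither passed (adjusted p = 0.542 for Acadvl and 0.456 for Acadm). That fit takes variation between groups as part of the spread, and it called 0 of all genes. It therefore neither upholds these 2 calls nor sets them apart from those of other genes. Without ZT12 neither passed, at 0.12 and 0.05 (adjusted p = 0.260 and 0.450), where 1.16% of all genes did, and the average of Hadhb was at -0.01. Cpt1a, Acadl, Cpt2, Acaa2 and Hadhb did not pass (adjusted p = 0.0736, 0.0744, 0.0999, 0.137 and 0.274).

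Whether the diet difference itself changed over the day was tested with an F test of diet by time. It passed for 5 of the 7 genes, Hadhb, Acaa2, Acadl, Acadm and Acadvl (adjusted p = 0.000544, 0.00858, 0.00927, 0.0104 and 0.0230), and for 19.0% of all genes. Cpt2 and Cpt1a did not pass (adjusted p = 0.0609 and 0.101). With ZT12 left out, 2 of the 7 passed, and 8.69% of all genes. A contrast of ZT12 against the mean of the other 5 time points, chosen with earlier results of these data known, was higher at ZT12 for 4 genes, where 7.70% of all genes were. Hadhb was higher by 0.46 ± 0.10, Acaa2 by 0.42 ± 0.11, Acadl by 0.33 ± 0.09 and Acadvl by 0.26 ± 0.08 (adjusted p = 0.00452, 0.0133, 0.0184 and 0.0309). Acadm and Cpt1a, at 0.37 ± 0.12 and 0.40 ± 0.14, did not pass (adjusted p = 0.0505 and 0.0664), nor did Cpt2 at 0.17 ± 0.22 (adjusted p = 0.682). Without control replicate 1 of ZT12, 1 gene passed.

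The second comparison asks how each gene varied over the day within a diet. Levels differed between time points for 6 of 7 genes on the high fat diet, all but Acadvl (adjusted p = 0.0602), and for 6 of 7 on the control diet, all but Acaa2 (adjusted p = 0.205). The same F test passed for 41.5% and 43.9% of all genes. Between neighbours in the order of a gene's 6 group means, arrays overlapped for 32 of 35 pairs on the high fat diet and 29 of 35 on the control diet. Such neighbours are the closest levels by construction, and the share over all genes was not computed. These counts therefore only describe the order and do not show that levels were the same. The steps that did separate are given with each gene.

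On the control diet Hadhb and Acadl were high from ZT20 through ZT0 to ZT4 and low from ZT8 to ZT16. Hadhb averaged 9.68 ± 0.03 at ZT20 (SD, n = 4), then 9.53 ± 0.05 at ZT0 and 9.52 ± 0.06 at ZT4, and 8.99 to 9.12 at ZT8, ZT12 and ZT16. In that order 2 steps had no overlap, between ZT20 and ZT0 and between ZT4 and ZT16. Acadl averaged 8.66 ± 0.10 at ZT0, 8.63 ± 0.06 at ZT4 and 8.53 ± 0.07 at ZT20, and 8.07 to 8.22 at ZT8, ZT12 and ZT16. One step had no overlap, between ZT20 and ZT16.

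The same genes had another course on the high fat diet. Hadhb averaged 9.67 ± 0.16 at ZT0 (SD, n = 3) and 9.57 ± 0.09 at ZT12 (n = 4), with 9.22 to 9.35 at the other times, and no neighbours in that order were free of overlap. Acadl averaged 8.73 ± 0.15 at ZT0, above all arrays of the next level, 8.47 ± 0.06 at ZT20, and was lowest at ZT16, at 8.26 ± 0.12, with no overlap with ZT8 above it. Its ZT12 arrays, at 8.44 ± 0.14, overlapped those of every other time, ZT0 and ZT16 included. The arrays of ZT16 (8.13 to 8.41) also overlapped those of ZT4 (8.35 to 8.59).

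Acaa2 differed between time points on the high fat diet. It averaged 11.18 ± 0.12 at ZT12 (SD, n = 4), above every array of the next level, 10.85 ± 0.19 at ZT8 (n = 2), and between 10.50 and 10.76 at the other times. On the control diet its means lay between 10.47 (ZT16) and 10.73 (ZT12), and neighbours overlapped throughout. Another of its probe sets, 1428145_PM_at, did pass on the control diet (adjusted p = 0.0182 over all probe sets tested). Cpt1a was highest at ZT8 in both diets, at 9.69 ± 0.22 on the high fat and 9.46 ± 0.06 on the control diet (n = 2 each), and lowest at ZT20, at 9.03 ± 0.14 and 9.01 ± 0.10 (n = 4 each). Between them, the high fat diet had 9.57 ± 0.22 at ZT12, against 9.08 ± 0.11 on the control diet, where the step from ZT4 to ZT12 had no overlap. The control arrays of ZT16, with a lower mean, reached 9.31 and overlapped those of ZT4 (9.18 to 9.48).

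Cpt2 was lowest at ZT4 on the high fat diet, at 6.87 ± 0.30 (SD, n = 4), and at ZT8 on the control diet, at 6.41 ± 0.27 (n = 2). Its highest mean was 7.85 ± 0.38 at ZT12 on the high fat diet and 7.53 ± 0.33 at ZT0 on the control diet, where ZT8 lay below all arrays of ZT4. Acadm was highest at ZT8 in both diets, at 9.25 ± 0.17 and 9.18 ± 0.11 (n = 2 each), and lowest at ZT20 on the high fat diet (8.80 ± 0.25) and at ZT12 on the control diet (8.63 ± 0.07). Acadvl ran from 9.12 (ZT20) to 9.33 (ZT16 and ZT12) on the high fat diet and from 9.01 (ZT12) to 9.29 (ZT4) on the control diet, where ZT8 and ZT12 lay below all arrays of ZT0. Both overlapped the control arrays of ZT20, the lowest of which was at 9.04. Without ZT8, 3 genes in place of 6 passed on the control diet, and Cpt2, Acadm and Acadvl were lost, while the share of all genes that passed was 26.6% in place of 43.9%.

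A cosine with a period of 24 h was then fitted in each diet, with its amplitude as the distance from mean to peak. It passed for 3 of 7 genes on the high fat diet (11.2% of all genes) and 3 of 7 on the control diet (6.66% of all genes). On the high fat diet Acaa2 had an amplitude of 0.31 ± 0.05 (SE) and a peak at ZT11.4 ± 0.6 h (adjusted p = 0.000131), Cpt1a one of 0.27 ± 0.06 at ZT9.26 ± 0.72 (adjusted p = 0.00384) and Acadl one of 0.13 ± 0.04 at ZT1.35 ± 1.16 (adjusted p = 0.0474). On the control diet Acadl had 0.32 ± 0.04 at ZT0.04 ± 0.49 (adjusted p = 3.45e-06), Hadhb 0.32 ± 0.06 at ZT23.1 ± 0.7 (adjusted p = 0.00144) and Cpt1a 0.22 ± 0.06 at ZT4.64 ± 0.95 (adjusted p = 0.0245). The high fat call of Acadl ended in 29 of the 41 fits that each left out 1 array (adjusted p up to 0.121), and the control call of Cpt1a in 4 of 41. The peaks of Acaa2 and Cpt1a on the high fat diet lay between ZT8 and ZT12, and those of Acadl and Hadhb on the control diet near ZT0. These are different genes, so the peaks do not show a move with diet. Acadl, called in both diets, peaked at ZT1.35 on the high fat and ZT0.04 on the control diet. Cpt1a, also called in both, peaked at ZT9.26 and ZT4.64, in the same order. The control cosine of Acaa2 did not pass (adjusted p = 0.559).

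The difference between the curves of the diets passed for Acaa2 (adjusted p = 0.0143), where 3.58% of all genes passed, and not for Cpt1a, Hadhb, Acadvl or Acadl (adjusted p = 0.0576, 0.0713, 0.0811 and 0.0814), or for Cpt2 and Acadm (0.269 and 0.309). So the amplitudes of Hadhb, 0.05 ± 0.05 on the high fat and 0.32 ± 0.06 on the control diet, are not shown to differ by this test. Of the other probe sets of Acaa2, 1455061_PM_a_at passed this test (adjusted p = 0.0230 over all probe sets tested) and 1428145_PM_at did not (0.0812). Time points are collection days, and with group as a random block the cosine passed for 0 genes on the high fat diet, for Acadl alone on the control diet (adjusted p = 0.00484), and for no difference, where 0.386%, 0.801% and 0.00585% of all genes passed. Without ZT12 the high fat cosine of Acaa2 had an amplitude of 0.19 (adjusted p = 0.131) and its curves were no longer called different (adjusted p = 0.237), with 4.60% and 0.0585% of all genes called. Without the 2 control arrays of ZT8, Cpt1a was lost on the control diet (0.20, adjusted p = 0.115), and Acadl and Hadhb passed at 0.30 and 0.29.

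**Figure D3:**
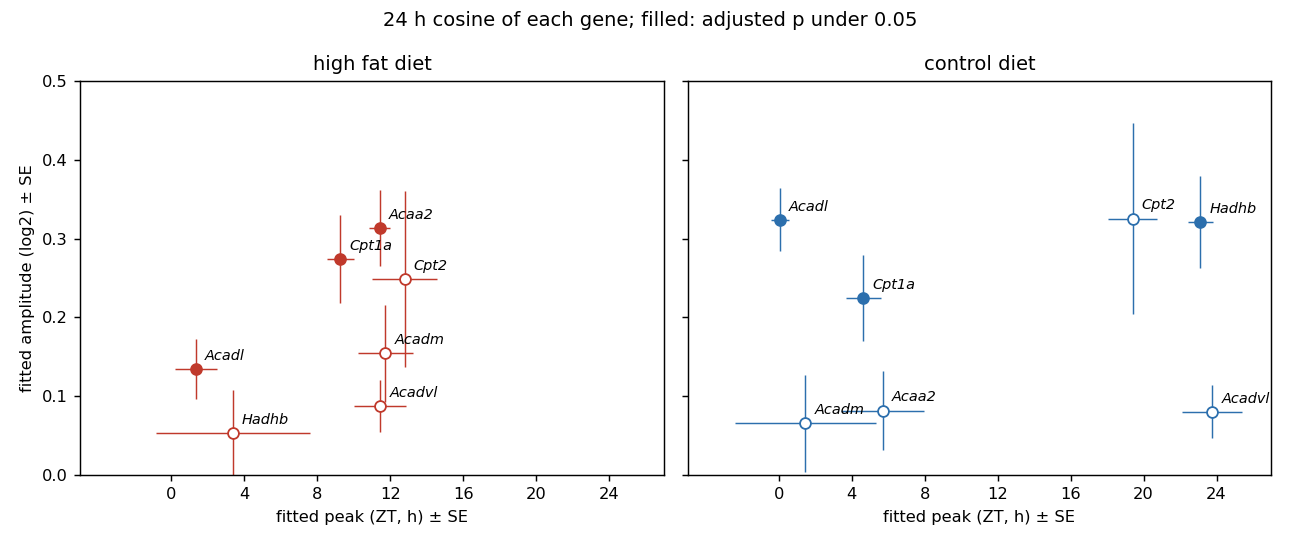
Fitted amplitude (log2, vertical axis) against fitted peak time (ZT in hours, horizontal axis, where 24 is the same time as 0) of the 24 h cosine of each gene, with the high fat diet on the left and the control diet on the right. Bars are ± SE and filled points passed an adjusted p of 0.05. On the high fat diet the filled points Acaa2, Cpt1a and Acadl lie at ZT11.4, ZT9.26 and ZT1.35. On the control diet the filled points Acadl, Hadhb and Cpt1a lie at ZT0.04, ZT23.1 and ZT4.64.

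The remaining probe sets did not all show the same differences. At ZT12 the other 2 probe sets of Acaa2 rose as well, 1455061_PM_a_at by 0.54 ± 0.13 (adjusted p = 0.00339) and 1428145_PM_at by 0.34 ± 0.11 (adjusted p = 0.0278), beside 0.45 for 1428146_PM_s_at. The second probe set of Acadl, 1448988_PM_at, averaged 4.65 over all arrays (8.43 for 1448987_PM_at), and its difference at ZT12 was 0.04 ± 0.10 (adjusted p = 0.831). The average of 1448988_PM_at lay at percentile 9.27 of all probe sets, so low that a difference may not be visible in it. The second probe set of Hadhb, 1442732_PM_at, went the other way, at -0.28 ± 0.14 at ZT12 (adjusted p = 0.185), with differences of -0.38 at ZT0, -0.27 at ZT16 and -0.19 at ZT20, and none passed. It had 6.68 to 7.37 on the high fat arrays of ZT12, against 7.23 to 7.31 on the control arrays. The second probe sets of Acadl and Hadhb did not pass the cosine on the control diet (adjusted p = 0.852 and 0.560). Nor did they pass the F test of diet by time (0.650 and 0.522). Between time points of the control diet, that of Hadhb passed (0.0382) and that of Acadl did not (0.264). The rises of Acadl and Hadhb, and their cosine and diet by time calls, are therefore those of 1 probe set each. Where in the transcripts the others lie was not tested.

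**Figure D4:**
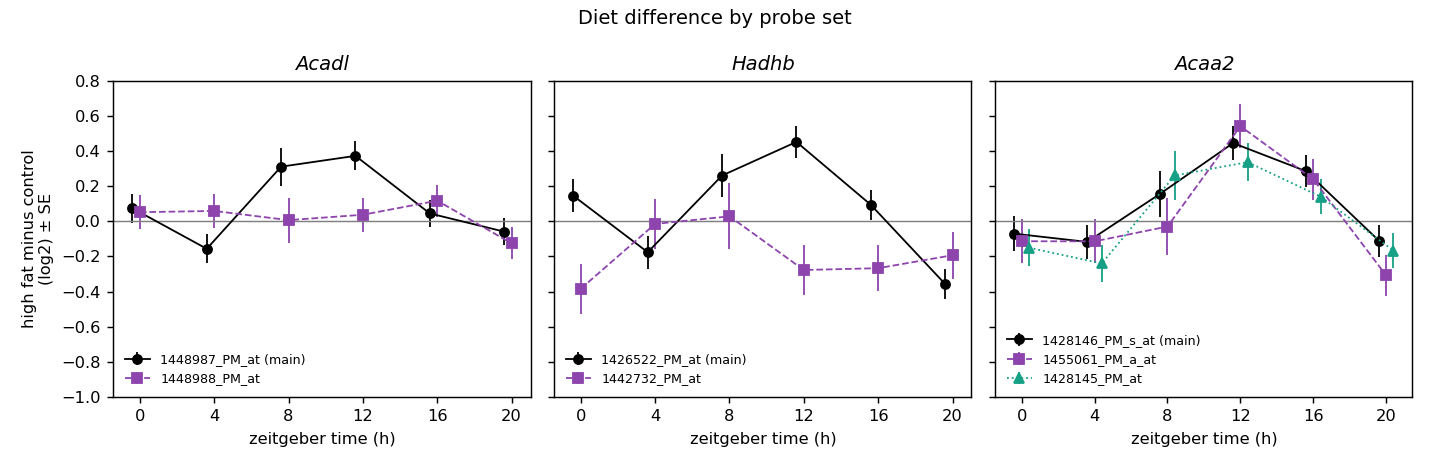
Difference between the diets (high fat minus control, log2, vertical axis) by zeitgeber time (hours) for each probe set of Acadl, Hadhb and Acaa2; points are estimates and bars ± SE. The 3 probe sets of Acaa2 all lie above 0 at ZT12, whereas the second ones of Acadl and Hadhb lie at 0.04 and -0.28.

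Around the core enzymes, 74 further genes of fatty acid handling in 6 lists were set beside them, of which 65 were measured. At ZT12, 15 rose and 1 fell, where 18.0% of all genes passed. The other mitochondrial oxidation genes were most like the core, with 6 of 15 up, 0 down and a median of 0.40. Hadh, which oxidises short 3-hydroxyacyl-CoA, rose by 0.42 ± 0.09 (adjusted p = 0.00175), Acadsb, the dehydrogenase of short and branched chains, by 0.53 ± 0.14 (adjusted p = 0.00863) and Eci2, an isomerase needed for unsaturated fatty acids, by 0.59 ± 0.16 (adjusted p = 0.00910). Of 10 measured peroxisomal genes 4 rose and 0 fell (median 0.19), among them the thiolase Acaa1a at 0.36 ± 0.09, the bifunctional enzyme Hsd17b4 at 0.38 ± 0.10 and the isomerase Ech1 at 0.47 ± 0.13.

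The carnitine shuttle held changes in both directions at ZT12, with 1 of 6 genes up and 1 down (median -0.08). Against the 13.6% of all genes that rose and 4.44% that fell, its counts and those of the next 3 lists are too small to tell from the general shares. Slc25a20, the carrier that brings acylcarnitine across the inner membrane between CPT1 and CPT2, rose by 0.57 ± 0.17 (8.93 ± 0.23 on the high fat diet, SD, n = 4, against 8.36 ± 0.14 on the control diet, n = 3, adjusted p = 0.0190). Crot, the peroxisomal carnitine octanoyltransferase, fell by 0.56 ± 0.10 (8.60 ± 0.22 on the high fat diet, against 9.16 ± 0.03 on the control diet, adjusted p = 0.000277). Of 11 uptake and activation genes 2 rose (median 0.09), the transport proteins Slc27a3 (0.51 ± 0.17) and Slc27a1 (0.24 ± 0.08). Among 15 regulators Esrra, which encodes the nuclear receptor ERR alpha, rose by 0.50 ± 0.11 (adjusted p = 0.00247), and 0 fell. Of 8 PPAR targets Angptl4, a secreted inhibitor of lipoprotein lipase, rose by 0.41 ± 0.14 (adjusted p = 0.0458), and 0 fell.

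At ZT8 these lists were mixed, with 6 up and 5 down, where 8.34% of all genes passed. Eci2 rose by 0.89 ± 0.21, Slc27a3 by 0.80 ± 0.22 and Angptl4 by 0.74 ± 0.19, whereas the peroxisomal thiolase Acaa1b fell by 1.17 ± 0.22, the peroxisome division gene Pex11a by 0.84 ± 0.13, Crot by 0.41 ± 0.13 and Slc27a1 by 0.39 ± 0.10. On the diet average 6 rose and 2 fell, where 7.59% of all genes passed, among them Eci2 (0.32 ± 0.07), the coactivator Ppargc1b (0.24 ± 0.07) and the AMP kinase subunit Prkaa2 (0.23 ± 0.06), and Plin2, a lipid droplet coat protein, which fell by 0.18 ± 0.05. At ZT0, ZT4, ZT16 and ZT20, 1, 0, 3 and 0 of the 65 passed with limma, where 1.24% and 0.702% of all genes passed at the last 2 of these times. At ZT4 and ZT20, 11 and 9 of the 65 had an unadjusted p under 0.05, as did 2039 and 2533 of all 17097 genes.

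**Figure D5:**
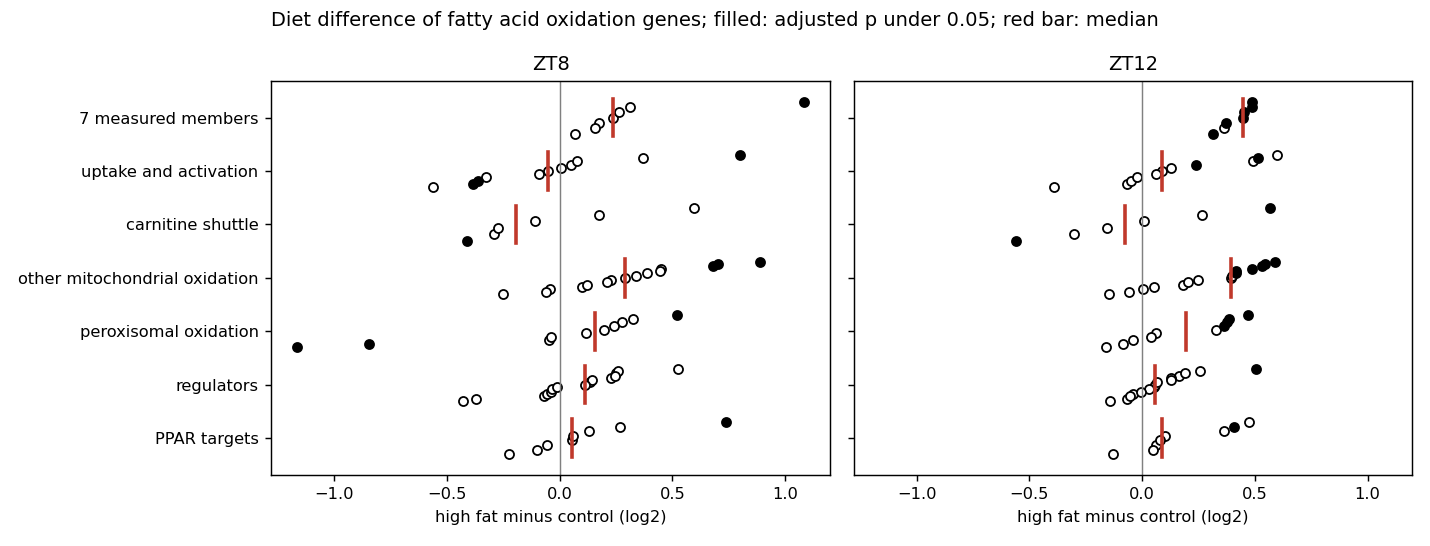
Difference between the diets (high fat minus control, log2, horizontal axis) of each measured gene in the 7 beta-oxidation genes and 6 related lists at ZT8 and ZT12; circles are genes, filled where the adjusted p was under 0.05, and red bars are list medians. At ZT12 the medians of the 7 genes and of the other mitochondrial oxidation genes are 0.45 and 0.40, and those of the other lists lie between -0.08 and 0.19.

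Across the 12 group means, the 7 genes correlated with each other at a median r of 0.39, with 19 of 21 pairs above 0 and Acadl with Hadhb the highest at 0.89. Within groups, over the 41 arrays after subtracting group means, the median was 0.15, with 14 of 21 pairs above 0 and a range of -0.39 to 0.47. The group means share their arrays and collection days, and these values are descriptions. When each of the 7 genes was centred and scaled over the 12 groups, their mean was highest in the high fat group of ZT12, at 1.23 SD units, and lowest in the control group of ZT12, at -0.88. Outside the 7 genes, the group means most like that mean were those of Ndufa4, which encodes a respiratory chain protein (r = 0.94 over 12 group means), followed by Plbd1 (0.92), Trappc6a (0.91), Glo1 (0.91), Vps28 (0.90), Aimp1 (0.89), Onecut1 (0.89) and Churc1 (0.89). All 8 were also higher on the high fat diet at ZT12, by 0.34 (Plbd1) to 1.00 (Churc1), which the likeness in part selects for.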

How the data were processed

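The 41 arrays, 21 of the high fat and 20 of the control diet, hold RNA of epidermal stem cells, of which 25 ng was amplified for 17 cycles per the labels' protocols. The deposited log2 values were made by the authors with RMA, per the submitters' processing notes. Its version is not given in the sources used here. That the scale is log2 rests on the range of the values. Scanner files were not used here, so signal over background is unknown; precision is limited by how many arrays a group holds.

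Of 45141 probe sets, the platform annotation gave a single gene for 28898, several for 551, which were left out, and none for 15692. Each of 17097 genes was tested by the probe set whose average across the arrays was highest. limma 3.58.1 (R 4.3.3, data.table version 1.17.8) was fitted to all arrays with a mean for each of 12 diet and time groups (29 residual degrees of freedom), with contrasts of high fat minus control, and again with a 24 h cosine in each diet (35 residual degrees of freedom). Adjusted p is Benjamini-Hochberg over all 17097 genes, or over 28898 probe sets where a single probe set is named, with a threshold of 0.05 and no filter on low values. Upstream windows came from RefSeq's GRCm38.p6 annotation. Python 3.11.15 with pandas 2.3.3 and matplotlib 3.10.9 drew the figures, and the scripts were tested on simulated data.

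The members, the lists of related genes and markers, and the contrast of ZT12 with other times were chosen with earlier results of these data known. All 7 measured members are named. In each related list up to 3 genes with the smallest adjusted p at ZT12 and up to 2 at ZT8 or on the average were named among those that passed, and the 8 genes most like the members were taken by correlation over group means, passing over predicted genes. Alternatives were other probe sets or their mean, dim genes left out, other eBayes settings, array weights, array medians subtracted, a residual component, random and replicate blocks, time points on their own or left out, and each array left out. Leaving out the control arrays of ZT8 was added after seeing the data.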

Additional observations from a re-analysis of the deposited data

Results flagged for a closer look

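Among the members, 2 single arrays lay far from the others of their group, with a gap to the nearest array as a share of the group's range above Dixon's critical value for 4 arrays. Acadm was at 8.90 in control replicate 2 of ZT0 (share 0.860) and Hadhb at 9.40 in high fat replicate 2 of ZT20 (share 0.929). These were 2 of 49 groups of 4 arrays, and chance gives about 1 in 20.

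The effect of diet differed between time points by the F test for Hadhb (adjusted p = 0.000544), Acaa2 (0.00858), Acadl (0.00927), Acadm (0.0104) and Acadvl (0.0230). ZT12 differed from the other time points for Hadhb (adjusted p = 0.00452), Acaa2 (0.0133), Acadl (0.0184) and Acadvl (0.0309). The cosine curves of the diets differed for Acaa2 (adjusted p = 0.0143), but not by its probe set 1428145_PM_at (0.0812 over all probe sets tested).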

How the results depend on the processing

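The 6 rises at ZT12 kept their direction and passed under every alternative run on the same probe sets, except Cpt1a without control replicate 2 of ZT12, so that 5 to 6 members passed when each array was left out. Averaged over its probe sets, Hadhb was at 0.09 and did not pass. With probe set 1442732_PM_at alone it reversed, to -0.28 at ZT12 and -0.11 for ZT12 against other times.

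Counts that moved, out of 7 members, were as follows. At ZT8 (1), array weights gave 0, as did the 4 arrays of ZT8 alone, a fit that called no gene of the whole table and so does not bear on the call. At ZT16 (1), its arrays alone gave 0 and the first residual component 2. At ZT20 (1), leaving out ZT12, its arrays alone (again with no gene called in the whole table), the mean of probe sets and trended, robust eBayes each gave 0. On the diet average (2), leaving out ZT12 and the additive model with a random block, which called no gene of the whole table, gave 0, leaving out ZT8, medians of the tested genes subtracted, array weights, the dimmest 25% of genes left out and trended, robust eBayes gave 1, and the first residual component 4. For diet by time (5), leaving out ZT12 gave 2 and the mean of probe sets 3. For time on the control diet (6), leaving out ZT8 gave 3. With group as a random block (correlation 0.37), the cosine gave 0 on the high fat diet, 1 on the control diet and 0 for their difference. For that difference (1), leaving out ZT12 gave 0, medians of all probe sets subtracted and the dimmest 25% left out 2, and array weights and the first component 3. Apart from those that use fewer arrays or other probe sets, the cause was not tested.

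Leaving out each array in turn gave 0 to 0 members at ZT0 and ZT4, 0 to 2 at ZT8, 0 to 1 at ZT16 and ZT20, 1 to 3 on the average, 1 to 6 for ZT12 against other times (1 without control replicate 1 of ZT12), 4 to 6 for diet by time, 6 to 7 and 4 to 6 for time on the high fat and control diets, 2 to 3 for the cosine in either diet and 1 to 4 for its difference (4 without high fat replicate 2 of ZT0). Over single members, these fits gave 3885 results on the same side of the threshold, 89 that no longer passed and 44 that newly passed, and the other alternatives on the same probe sets 977, 52 and 21. For a difference at 1 time point, leaving out an array of another time cannot move the estimate. The count of unchanged results is therefore no measure of robustness. Differences that passed under neither setting were given no direction.

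After subtracting group means, same-numbered arrays of different groups correlated at a mean r of -0.03, against 0.01 for other numbers. Of the 41 arrays, 1 was closest to its own number, and the count to be expected without pairing was not computed. These values show no pairing by replicate number, but such correlations cannot exclude it. With the replicate block, 0 members passed at ZT16 and ZT20 and 1 on the average, and 6 at ZT12. Subtracting array medians moved the median of all genes at ZT12 to 0.07 or -0.01, against 0.05 as deposited.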
